A study of Mus musculus with 10 samples.

Results

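Respiratory complex I, the NADH:ubiquinone oxidoreductase of the mitochondrial inner membrane, is described here through its nuclear genes in the left atrium of adult mice with and without removal of Tbx5. The genes were taken by name: every row of the deposited gene table whose symbol begins with Nduf, 42 of 23337 genes. They comprise 36 structural subunits, 4 assembly factors (Ndufaf1 to Ndufaf4) and 2 genes named Nduf whose products act outside complex I (Ndufa4 and Ndufa4l2). For brevity all 42 are called complex I genes below, with Ndufa4 and Ndufa4l2 included in counts and medians unless a submodule is named. Of the 42, 41 passed the filter on low counts and were tested, and Ndufs5, a subunit of the proximal membrane arm, was listed with 0 reads in all 10 libraries. The subunit Ndufb1 and the mitochondrially encoded ND subunits were not analysed here.

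Complex I takes electrons from NADH, passes them through flavin and iron-sulfur clusters to ubiquinone, and uses the energy released to pump protons out of the matrix. The N module of its matrix arm oxidises NADH, the Q module reduces ubiquinone, and the membrane arm, with proximal and distal parts, moves the protons. The conserved core subunits carry out the catalysis, the accessory subunits surround and stabilise them, and assembly factors help build the enzyme without staying in it. Heart muscle is rich in mitochondria and makes most of its ATP by oxidative phosphorylation.

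The tested animals were labelled Tbx5 Null (Tbx5-/-) and gave 6 libraries, 3 female (F1 to F3) and 3 male (M1 to M3). The control animals were labelled wild type (Tbx5 +/+) and gave 4 libraries, 2 female (F1 and F2) and 2 male (M1 and M2). Exon 3 of Tbx5, a T-box transcription factor gene of the heart, was excised by a tamoxifen-inducible Cre recombinase under the ubiquitous R26 promoter, so removal was not limited to cardiomyocytes. Tamoxifen was given intraperitoneally at 0.167 mg per day for 3 days, and the atria were taken 1 week afterwards. All animals were of a mixed strain of C57B6 and 129 backgrounds, aged 8 to 10 weeks in the sample labels and 6 to 8 weeks in the protocol. The treatment text is the same for every sample and does not say separately whether the controls carried the Cre allele or received tamoxifen. If they did not, an effect of either cannot be told apart from that of Tbx5 removal. Levels are normalized read counts (the authors' counts divided by a size factor per library), differences are log2 fold changes of knockout over control with their standard error, and "past the threshold" means an adjusted p under 0.05 (edgeR quasi-likelihood test, Benjamini-Hochberg over 13191 genes).

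Tbx5 itself was examined first. Its level was lowest at 1497, with a median of 1991 and a highest value of 2460 normalized counts in the 6 knockout libraries, against 1077, 992, 785 and 901 in control M1, M2, F1 and F2. The lowest library labelled knockout exceeded the highest control (log2 fold change 1.03 ± 0.14, adjusted p = 4.78e-05). Permuting the labels exactly (two-sided, mean log2 level) gave p = 0.00476, the lowest value possible with 210 arrangements. A count over the whole gene does not measure the loss of exon 3, and the direction of this count goes against what a loss label would lead one to look for, so every direction below rests on the labels. Total counts were 5789632 to 7355782 in the knockout libraries and 5701670 to 7697556 in the control libraries. The libraries therefore differed little in depth, but the 10 most abundant genes took 10.9% to 14.4% of the reads in knockout libraries and 19.3% to 20.9% in control libraries.

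The tissue label was set against marker lists. For comparison, 20.8% of all genes tested were higher and 21.8% lower past the threshold. Of 9 cardiomyocyte markers 3 were higher and 4 lower past the threshold, and their summed level was 287200 to 391600 normalized counts in knockout libraries and 422700 to 498200 in control libraries, none of the 9 being at 0. Fibroblast markers (5 of 7 higher, 1 lower) summed to 34860 to 49400 in knockout and 18240 to 20230 in control libraries, and macrophage markers (6 of 6 higher) to 5004 to 7978 in knockout and 2266 to 3056 in control libraries. Endothelial markers (4 of 7 higher, 1 lower) summed to 15660 to 18290 in knockout and 10450 to 12980 in control libraries, and smooth muscle and pericyte markers (5 of 7 higher) to 3904 to 4791 in knockout and 2608 to 3085 in control libraries. None of these sums overlapped between the groups. Ventricular cardiomyocyte markers (2 of 4 tested higher) summed to 5978 to 12180 in knockout and 1938 to 2550 in control libraries, with Irx4 at 0 in every library. The sums of epicardial, adipocyte, erythroid and nerve markers overlapped between the groups. In bulk tissue, fewer cells of a type and less RNA per cell cannot be told apart, and the part of these shifts in the complex I values below was not tested.

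Complex I genes differed little between knockout and control atria. With scaling by TMM (trimmed mean of M values), 3 of the 41 tested genes were higher in knockout, the accessory subunits Ndufa9, Ndufb6 and Ndufb11, and 2 were lower, the iron-sulfur core subunits Ndufs1 and Ndufs7, while 36 did not pass. These 5 are 12.2% of the genes, where 42.6% of all genes tested passed, 20.8% higher and 21.8% lower. The log2 fold changes of the 41 genes ran from -0.34 to 0.40 with a median of 0.05, beside a median of -0.00092 over all genes tested. Their median absolute log2 fold change was 0.14, beside 0.32 over all genes tested. In all, 5371 of the tested genes (40.7%) had a larger absolute log2 fold change than any complex I gene. The count of complex I genes in each direction depended on the scaling and on offsets for exon length and GC content. These counts are given with the plot of 3 scalings.

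**Figure D1:**
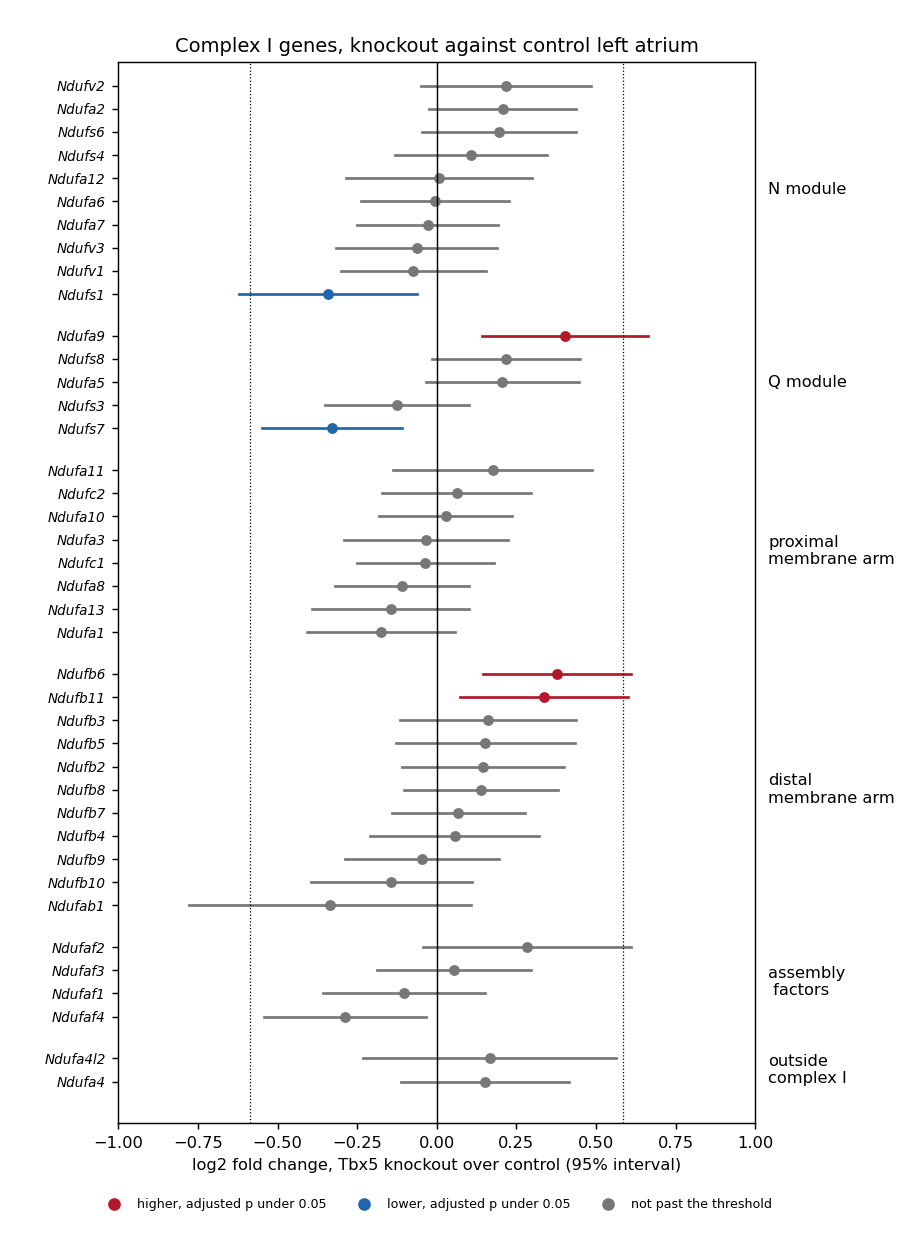
Log2 fold change of knockout over control (points) with its 95% interval (lines) for 40 tested genes, grouped by submodule, with dotted lines at a fold of 1.5 in either direction. The points lie between -0.34 and 0.40, with 3 genes past the threshold above 0 and 2 below it.

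**Figure D2:**
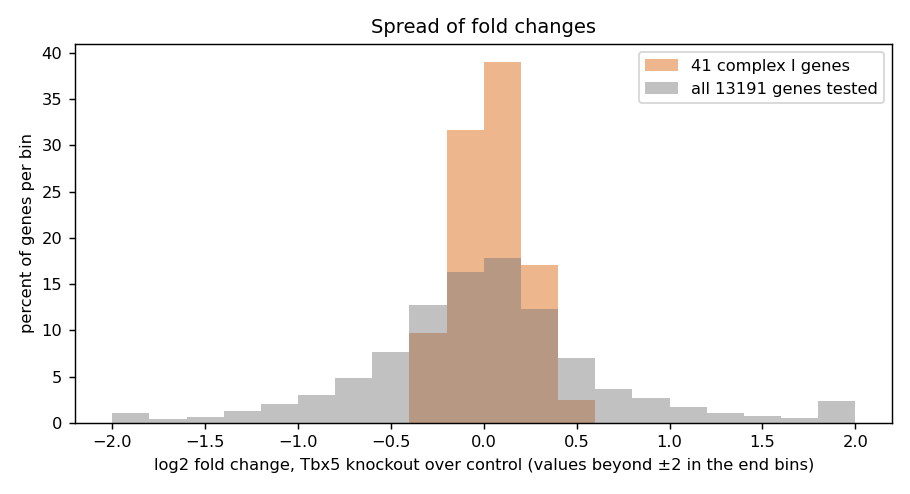
Percent of genes in each bin of log2 fold change (knockout over control) for the 41 complex I genes and for all 13191 genes tested. The 41 are all tested Nduf genes, with Ndufa4 and Ndufa4l2 included. The complex I genes lie within the 5 bins around 0, while 40.7% of all genes tested exceed the highest absolute value of a complex I gene.

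Under TMM scaling, the precision of these values was high enough to bound most of them. The intervals do not carry the choice of scaling. Ndufs7, for one, lay within the bound used here but had -0.53 ± 0.09 with offsets for exon length and GC content. For 35 of the 41 genes (85.4%) the 95% interval of the fold change lay within a fold of 1.5 in either direction, where this held for 5601 of all genes tested (42.5%). The 6 genes whose interval reached past a fold of 1.5 were Ndufa9, Ndufb6, Ndufb11, Ndufs1, Ndufab1 and Ndufaf2. The median standard error was 0.11 for complex I genes and 0.14 for all genes tested, so the shares also reflect precision. Knockout libraries lay wholly above or below all control libraries for 2 of the 41 genes, Ndufb6 and Ndufs7, where this held for 31.3% of all genes tested.

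In the N module, 1 of 10 genes passed (10.0%), beside 42.6% of all genes tested. The median log2 fold change of the module was 0.00048. Ndufs1, the largest iron-sulfur core subunit, had 3244 as its lowest, 3831 as its median and 5211 as its highest normalized count in knockout libraries, against 4658, 4730, 5593 and 4971 in control M1, M2, F1 and F2. Knockout M3, at 5211, lay among the controls, and the other 5 knockout libraries lay below all of them. The log2 fold change was -0.34 ± 0.13 (adjusted p = 0.0473). This call was kept in 1 of 10 fits with a library left out, that without knockout M3 (adjusted p = 0.00609), and in the other 9 the adjusted p ran from 0.0526 to 0.164.

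The other core subunits of this module did not pass. Ndufv1, which binds NADH and the flavin, ran from 4150 over a median of 4662 to 5694 normalized counts in knockout libraries, against 4748, 4555, 5052 and 5275 in control M1, M2, F1 and F2 (log2 fold change -0.07 ± 0.11). Its partner Ndufv2, an iron-sulfur subunit, had 3115, 3541 and 4409 as lowest, median and highest in knockout libraries, against 2573, 3126, 3246 and 3508 in control M1, M2, F1 and F2 (0.22 ± 0.12, adjusted p = 0.178). The groups overlapped for both genes. The 7 accessory genes of the module, Ndufv3, Ndufs4, Ndufs6, Ndufa2, Ndufa6, Ndufa7 and Ndufa12, had log2 fold changes from -0.06 (Ndufv3) to 0.21 (Ndufa2), and none passed.

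Q module genes included 1 that was higher and 1 that was lower, with a median log2 fold change of 0.12 over 6 genes. The share that passed was 33.3%, beside 42.6% of all genes tested. Ndufa9, an accessory subunit that lies near the ubiquinone site, ran from 2943 over a median of 3658 to 4395 normalized counts in knockout libraries, against 2377, 2679, 3024 and 2901 in control M1, M2, F1 and F2. Only knockout M1, at 2943, fell within the control range. The log2 fold change was 0.40 ± 0.12 (adjusted p = 0.0162), the largest of the 41 genes, and the adjusted p was at most 0.0434 with any library left out.

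Ndufs7, the core subunit with the iron-sulfur cluster nearest to ubiquinone, moved the other way. Its lowest, median and highest values were 1073, 1237 and 1337 normalized counts in knockout libraries, against 1339, 1479, 1410 and 1792 in control M1, M2, F1 and F2. The groups did not overlap, but the highest knockout value, 1337, and the lowest control value, 1339, were almost equal. The log2 fold change was -0.33 ± 0.10 (adjusted p = 0.0189), and without control F2, the highest library, it was -0.21 (adjusted p = 0.109).

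Ndufs3 and Ndufs8 did not pass. Ndufs3, a core subunit without an iron-sulfur cluster, ran from 329 over a median of 377 to 408 normalized counts in knockout libraries, against 343, 389, 428 and 436 in control M1, M2, F1 and F2 (log2 fold change -0.13 ± 0.11). Ndufs8, a subunit with a pair of iron-sulfur clusters, ran from 1708 over 1880 to 2187 in knockout libraries, against 1410, 1543, 1656 and 1878 in control M1, M2, F1 and F2 (0.22 ± 0.11, adjusted p = 0.123). Both overlapped between the groups, and Ndufs8 passed when control F2 was left out (0.32, adjusted p = 0.0387). Of all genes tested, 20.8% were higher and 21.8% lower under TMM scaling. Over the 7 nuclear core subunits of both modules, 2 were lower, none higher, and the median was -0.07. Over the 28 tested accessory subunits of the whole enzyme, 3 were higher, none lower, and the median was 0.06. These counts depended on the scaling. With library size alone the core subunits Ndufs8 and Ndufv2 passed as higher, as did accessory subunits, and no core subunit passed as lower. With offsets for exon length and GC content, the accessory subunits Ndufa1, Ndufa3, Ndufa8, Ndufa13, Ndufb9 and Ndufb10 passed as lower. The core subunits Ndufs3 and Ndufs7 then also passed as lower, and Ndufa9 as higher. The difference between core and accessory subunits was not tested.

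**Figure D3:**
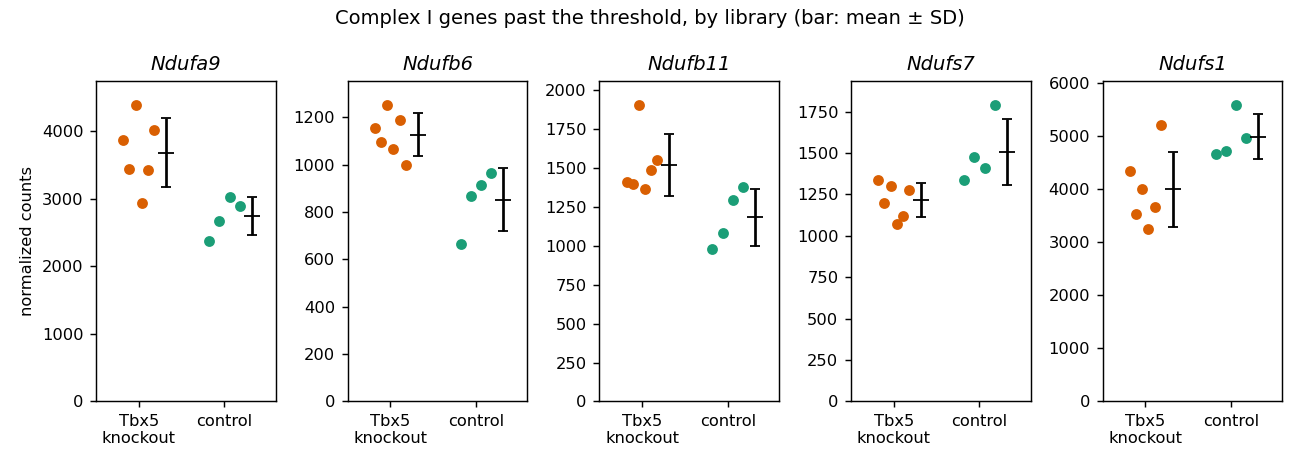
Normalized counts per library (points) with mean ± SD (bars) for the 5 genes past the threshold, in 6 knockout and 4 control libraries. Ndufa9, Ndufb6 and Ndufb11 are higher and Ndufs7 and Ndufs1 lower in knockout, and only Ndufb6 and Ndufs7 show no overlap of the groups.

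None of the 8 tested genes of the proximal membrane arm passed, beside 42.6% of all genes tested. The median log2 fold change of the 8 was -0.03. The highest was Ndufa11, an accessory subunit of the membrane arm, with 1363, 1615 and 2406 normalized counts as lowest, median and highest in knockout libraries, against 1431, 1420, 1428 and 1642 in control M1, M2, F1 and F2 (0.18 ± 0.15). The lowest was Ndufa1, a small single-pass membrane subunit encoded on the X chromosome, with 882, 1066 and 1285 in knockout libraries, against 1051, 1154, 1261 and 1322 in control M1, M2, F1 and F2 (-0.18 ± 0.11). The groups overlapped for both. Ndufs5 was the ninth gene of this arm and had no reads. In the annotation, 30.8% of the 51-base windows of its longest transcript also occur in another gene. Members that shared more, such as Ndufaf2 (80.9%), Ndufs3 (39.1%), Ndufb4 (36.9%) and Ndufb6 (34.0%), did have reads. Only annotated transcripts were compared, and the treatment of multi-mapping reads is not given in the sources used here. Why Ndufs5 had no reads was not tested, so its count does not show that the gene is silent.

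In the distal membrane arm 2 of 11 genes were higher (18.2%) and none lower, with a median log2 fold change of 0.14. Of all genes tested, 20.8% were higher and 21.8% lower. Ndufb6, a single-pass membrane subunit, had 998, 1124 and 1253 normalized counts as lowest, median and highest in knockout libraries, against 665, 866, 914 and 965 in control M1, M2, F1 and F2. All 6 knockout values exceeded all 4 control values. The log2 fold change was 0.38 ± 0.11 (adjusted p = 0.0126), with an adjusted p of at most 0.0311 when any library was left out.

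Ndufb11, an X-linked subunit of the same arm, had 1365, 1447 and 1906 normalized counts in knockout libraries, against 982, 1083, 1291 and 1378 in control M1, M2, F1 and F2. The lowest knockout value lay just below the highest control value, and knockout F3 stood highest. The log2 fold change was 0.34 ± 0.12 (adjusted p = 0.0393). The call was lost in 5 of 10 fits with a library left out, those without control M1 or M2 or knockout F3, M2 or M3, with adjusted p values from 0.0506 to 0.102.

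The lowest gene of the arm was Ndufab1, the mitochondrial acyl carrier protein, which also serves fatty acid synthesis. It had 21.8, 25.4 and 37.4 normalized counts in knockout libraries, against 37.8, 30.5, 39.3 and 31.4 in control M1, M2, F1 and F2, and with so few reads its interval was wide (-0.34 ± 0.21, adjusted p = 0.208). The other 8 distal arm genes, Ndufb2 to Ndufb5 and Ndufb7 to Ndufb10, had log2 fold changes from -0.14 (Ndufb10) to 0.16 (Ndufb3), and none passed.

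The 4 assembly factors named Nduf did not pass, where 42.6% of all genes tested passed. Ndufaf4, which acts early in assembly with Ndufaf3, had 382, 521 and 622 normalized counts as lowest, median and highest in knockout libraries, against 653, 611, 578 and 577 in control M1, M2, F1 and F2 (-0.29 ± 0.12, adjusted p = 0.0635). It was the sixth of 41 genes with an unadjusted p under 0.05, and knockout F1, at 622, was the only knockout library above a control. Without that library it passed (-0.36, adjusted p = 0.0197). Ndufaf2, a chaperone of late assembly, had 80.9, 121 and 139 in knockout libraries, against 88.7, 88.9, 104 and 97.3 in control M1, M2, F1 and F2 (0.28 ± 0.15, adjusted p = 0.151), and passed without knockout M1 (0.38, adjusted p = 0.0194). Ndufaf1 and Ndufaf3 had log2 fold changes of -0.10 and 0.05.

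Of 15 further assembly factors without an Nduf symbol in the table, 1 was lower and none higher, with a median log2 fold change of 0.08. The share that passed was 6.67%, beside 42.6% of all genes tested. The gene that passed, Dmac2, a factor of distal arm assembly listed under its older symbol Atp5sl, had 193 to 251 normalized counts in knockout libraries, against 291, 272, 268 and 285 in control M1, M2, F1 and F2, with no overlap (-0.35 ± 0.10, adjusted p = 0.0101). This list includes Ndufaf5 to Ndufaf8, found under the older symbols 2310003L22Rik, 2310030N02Rik, 2410091C18Rik and 1810043H04Rik, and their log2 fold changes were -0.05, 0.24, 0.08 and -0.15. None of these 4 passed.

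Both genes that carry an Nduf name outside complex I did not pass. Ndufa4, now known as a subunit of cytochrome c oxidase, had 5242, 5654 and 7308 normalized counts as lowest, median and highest in knockout libraries, against 4444, 5010, 5642 and 5890 in control M1, M2, F1 and F2 (0.15 ± 0.12). Its low-expressed relative Ndufa4l2, a hypoxia-responsive gene, had 34.2, 43.0 and 49.1 in knockout libraries, against 33.1, 47.4, 27.8 and 36.6 in control M1, M2, F1 and F2 (0.17 ± 0.18). Values of the groups overlapped for both.

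Levels of different genes were compared per kilobase of annotated exon. Ndufb9, a distal arm subunit, and Ndufa4 had the highest levels, 3810 ± 478 and 4290 ± 587 normalized counts per kilobase in knockout libraries and 3875 ± 373 and 3799 ± 471 in control libraries. These 2 neighbours in the order did not differ beyond their spread per kilobase of exon. Per kilobase of the longest transcript, Ndufb9 had 5580 ± 700 in knockout and 5674 ± 546 in control libraries, and Ndufa4 had 4809 ± 658 in knockout and 4258 ± 528 in control libraries, so that the control ranges of mean ± SD no longer met. The lowest tested gene was Ndufab1 at 4.04 ± 0.98 per kilobase in knockout and 5.05 ± 0.65 in control libraries, below Ndufaf2 at 39.3 ± 7.64 in knockout and 31.8 ± 2.49 in control libraries. By median, the assembly factors stood at 123 per kilobase in knockout and 133 in control libraries, and the Q module at 1619 in knockout and 1281 in control libraries. The assembly factors thus stood below the median of each subunit module in both groups. With the longest transcript in place of all exons, the medians were 141 in knockout and 151 in control libraries for the assembly factors and 2050 in knockout and 1743 in control libraries for the Q module.

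The genes moved together from library to library within each group. After centring each gene midway between its group means, the median log2 level of the 41 genes was 0.27 in knockout F3 and -0.17 in knockout M1, the extremes of the knockout group. In the control group it ran from -0.21 in M1 to 0.09 in F2. Knockout F3 was the highest knockout library for 32 of the 41 genes and knockout M1 the lowest for 32, and control M1 was the lowest control library for 35. The 4 subunit modules shared these extremes, as the plot by library shows, while the 4 assembly factors were highest in knockout M3.

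Genes of complexes II to V followed the same libraries, with centred medians of 0.24 in knockout F3, -0.12 in knockout M1 and -0.22 in control M1. The summed cardiomyocyte markers were 376400 in knockout F3, below 391600 in knockout F1 and 384100 in knockout M3, and 287200 in knockout M1, the lowest of all libraries. They were 440700 in control M1 and 422700 in control M2. The part of tissue composition in this spread was not tested.

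**Figure D4:**
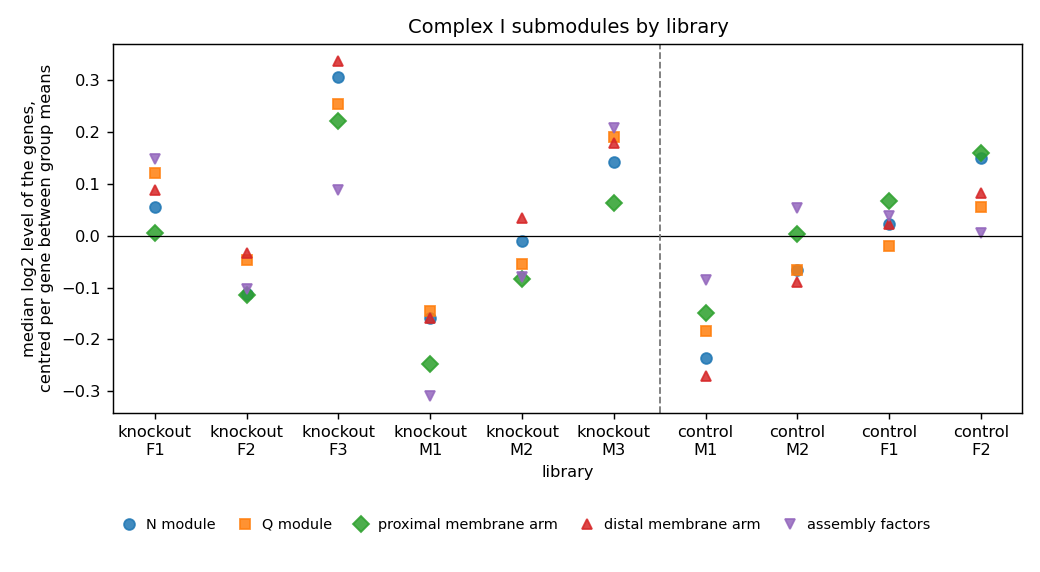
Median log2 level of the genes of each submodule in each library, after centring each gene midway between its knockout and control means, with 6 knockout libraries left and 4 control libraries right of the dashed line. The 4 subunit modules are highest in knockout F3 and lowest in knockout M1 or control M1, while the assembly factors are highest in knockout M3.

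Summed over all 42 Nduf genes, assembly factors and the abundant Ndufa4 included, they took 1.24% ± 0.12 of assigned reads in knockout libraries (SD, n = 6; 1.12% to 1.45%) and 1.10% ± 0.09 in control libraries (SD, n = 4; 0.98% to 1.19%), and the ranges overlapped. Because the most abundant genes took a smaller part of the knockout libraries, the share was also taken after leaving out the 10 most abundant genes. It was then 1.43% ± 0.16 in knockout and 1.38% ± 0.11 in control libraries.

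Which complex I genes passed depended on the scaling. With library size alone, 11 genes were higher and none lower, where 29.9% of all genes tested were higher and 15.3% lower. Under that scaling the median of all genes tested moved to 0.14 and that of the complex I genes to 0.19, so the distance between them stayed at 0.05. Ndufs7 and Ndufs1 then had log2 fold changes of -0.19 (adjusted p = 0.117) and -0.21 (adjusted p = 0.164).

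Offsets for exon length and GC content, fitted per library without regard to group, turned the balance. Complex I genes are short, with a median exon length of 1718 bp against 4560 bp over all genes tested. Across 11973 genes, the log2 fold change had a Spearman rho of -0.23 with length and 0.22 with GC content. Across the 41 complex I genes, rho was -0.23 with length and -0.11 with GC content. Genes are not independent replicates. With the offsets 1 gene, Ndufa9, was higher (0.27, adjusted p = 0.0422) and 8 were lower, where 21.7% of 11973 genes were higher and 21.1% lower. The 8 were Ndufa1, Ndufa3, Ndufa8, Ndufa13, Ndufb9, Ndufb10, Ndufs3 and Ndufs7, with log2 fold changes from -0.53 (Ndufs7) to -0.28 (Ndufa3). The median of the 41 genes was then -0.14, beside -0.01 over all genes. Ndufb6 and Ndufb11 did not pass with the offsets (0.17, adjusted p = 0.176, and 0.08, adjusted p = 0.556). By direction, 2 of the 5 genes passed under both TMM alone and the offsets, Ndufa9 and Ndufs7. The offsets cannot separate a length or GC bias of the libraries from a genotype difference that follows length or GC content.

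**Figure D5:**
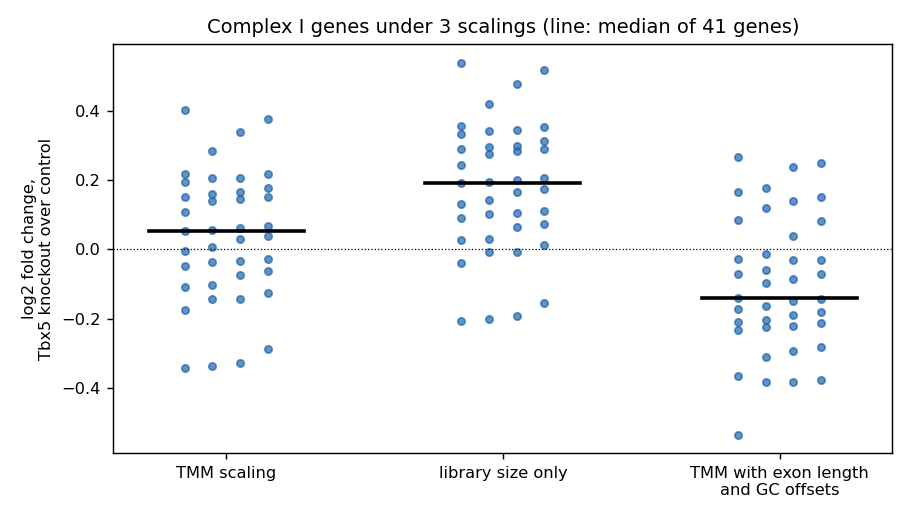
Log2 fold change (knockout over control) of the 41 tested genes (points) and their median (line) under TMM scaling, library size only, and TMM with offsets for exon length and GC content. The medians are 0.05, 0.19 and -0.14.

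The genotype effect was also read within each labelled sex. In a fit with sex by group, no complex I gene passed in females (3 at an unadjusted p under 0.05) and 2 were higher in males, Ndufb11 (0.49, adjusted p = 0.0364) and Ndufb6 (0.48, adjusted p = 0.0269), where 28.2% of all genes tested passed in females and 26.1% in males. In females the same genes had log2 fold changes of 0.21 and 0.29. Fitted apart, the female libraries gave 1 gene higher, Ndufa9 (adjusted p = 0.0437), and 2 lower, Ndufs1 (adjusted p = 0.0206) and Ndufs7 (adjusted p = 0.0457), where 37.4% of all genes passed. The male libraries fitted apart gave none, where 15.6% of all genes passed, and 2 male controls stood in that fit. With library size only, the sex by group fit called 2 genes in females (31.3% of all genes) and 4 in males (27.6%). The difference between the sexes passed for none of the 41 genes, 0 at an unadjusted p under 0.05, with a smallest adjusted p of 0.887, where 0.205% of all genes tested passed.

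The counts of some complex I genes may include reads of neighbours, since the strand setting of the counting is not given in the sources used here. Exons of 19 members overlap an exon of another gene. Of the 5 genes past the threshold, Ndufs7 (chromosome 10, 80249121 to 80256794, plus strand, GRCm38) overlaps none and shares no 51-base window with another gene. Ndufa9 (chromosome 6, 126821721 to 126849136, minus strand) shares 1.4% of its windows and overlaps exons of the antisense gene 1700018A23Rik, for which no level was analysed here. Ndufs1 (chromosome 1, 63143596 to 63176833, minus strand) shares 5.9% and overlaps Eef1b2 on the other strand, which had 1217 ± 118 normalized counts in knockout and 1008 ± 116 in control libraries. Ndufs1 also overlaps Ino80dos on the other strand (listed as Gm11602), at 23.3 ± 6.32 in knockout and 30.7 ± 3.78 in control libraries.

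Shared sequence was larger for the distal arm genes. Ndufb6 (chromosome 4, 40270591 to 40279421, minus strand) shares 34.0% of its windows and overlaps Smim27 on the other strand (listed as 2010003O02Rik), which had 55.2 ± 12.1 normalized counts in knockout and 66.5 ± 11.1 in control libraries. Ndufb11 (chromosome X, 20615326 to 20617619, minus strand) shares 17.0% and overlaps Rbm10, at 126 ± 10.0 in knockout and 104 ± 11.4 in control libraries. Both neighbours had far fewer counts than the complex I gene beside them.

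Promoter windows of RefSeq (GRCm38.p6, 250 bases before to 50 after the start) were available for 36 of the 41 tested genes, in 38 windows. They were searched on both strands for motifs of factors linked to Tbx5 or to mitochondrial genes. The T-box core AGGTGT occurred in 10.5% of complex I windows and in 13.7% of all 32851 windows. The YY1 core AAGATGGCG occurred in 13.2% of complex I windows, those of 5 genes, and in 1.40% of all windows. The NRF1 core GCGCATGCG occurred in 7.89% of complex I windows and 1.75% of all. The ETS motif of GABPA, CCGGAAGT, occurred in 2.63% of complex I windows and 3.89% of all, and the ERR motif AAGGTCA in 5.26% of complex I windows and 4.72% of all. The NRF1 core overlaps its own reverse complement, so a match on one strand can bring an overlapping match on the other, counted as 1 window.

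Among the 5 genes past the threshold, the YY1 core was found in the windows of Ndufa9 and Ndufs7, one higher and the other lower in knockout. Their stretches are shown to set the same letters beside opposite directions, in capitals, from chr6:126849096-126849125 (minus strand) and chr10:80249463-80249492 (plus strand), both downstream of the start of transcription in RefSeq. The stretch of Ndufaf4 around the NRF1 core, chr4:24897960-24897989 (plus strand), and that of Ndufs3 around the reversed GABPA motif, chr2:90904703-90904732 (minus strand), are given for the 2 mitochondrial regulators described next.
Ndufa9: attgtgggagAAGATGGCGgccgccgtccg
Ndufs7: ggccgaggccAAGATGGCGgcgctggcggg
Ndufaf4: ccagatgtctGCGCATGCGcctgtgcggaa
Ndufs3: tgcacatttccACTTCCGGtccgtgccctt
A match of letters is a description of the window and does not show that a factor binds there.

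Some regulators of mitochondrial genes were lower in knockout. Of 15 listed regulators 5 were lower (33.3%), none higher and 10 did not pass, where 42.6% of all genes tested passed. Whether they differ from the complex I genes was not tested. Ppargc1a, the coactivator PGC-1 alpha, had 230, 367 and 426 normalized counts as lowest, median and highest in knockout libraries, against 880, 632, 951 and 972 in control M1, M2, F1 and F2. All knockout libraries lay below all control libraries (-1.31 ± 0.16, adjusted p = 2.37e-05).

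Gabpa, the DNA-binding subunit of nuclear respiratory factor 2, had 348 to 445 normalized counts in knockout libraries, against 637, 688, 638 and 562 in control M1, M2, F1 and F2 (-0.71 ± 0.09, adjusted p = 4.34e-05). The fatty acid oxidation regulator Ppara fell by 0.75 ± 0.20 on the log2 scale (adjusted p = 0.00764), the estrogen-related receptor Esrrg by 0.52 ± 0.13 (adjusted p = 0.00682), and Perm1, a muscle coregulator listed as 2310042D19Rik, by 0.33 ± 0.09 (adjusted p = 0.0121). Knockout and control libraries did not overlap for any of these 5 genes, where this held for 31.3% of all genes tested. The 5 were named because they passed the threshold on the same counts. Nrf1, Yy1 and the mitochondrial transcription factor Tfam had log2 fold changes of 0.02, -0.05 and -0.07. With the length and GC offsets Ppargc1a and Gabpa stayed past the threshold at -1.12 and -0.56, while Esrrg did not pass (-0.36, adjusted p = 0.0535).

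The other respiratory complexes were read from the same fit. Of 39 tested genes of complexes II to V, 8 were higher and 2 lower (25.6%), with a median log2 fold change of 0.09. Of all genes tested 42.6% passed, 20.8% higher and 21.8% lower. In complex II, Sdhd, a membrane anchor, had 3464 ± 508 normalized counts in knockout and 2539 ± 279 in control libraries, and it was the only one of 4 to pass. In complex III 3 of 9 were higher, with the cytochrome c1 gene Cyc1 at 3590 ± 220 in knockout and 2631 ± 210 in control libraries (0.43 ± 0.09, adjusted p = 0.00202). The others were Uqcrb (0.36 ± 0.12) and the core protein gene Uqcrc2 (0.34 ± 0.12).

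Complex IV held larger differences than any complex I gene showed, in both directions. Its subunit gene Cox6c had 5365 ± 858 normalized counts in knockout and 3304 ± 213 in control libraries (0.68 ± 0.12, adjusted p = 0.000653). Cox6a1 (0.46 ± 0.13) and Cox6b1 (0.33 ± 0.11) were also higher. The muscle isoform Cox7a1 had 3028 ± 423 in knockout and 4784 ± 526 in control libraries (-0.68 ± 0.12, adjusted p = 0.000444). In complex V Atp5j2, a membrane subunit, was higher (0.45 ± 0.11) and Atp5e, the epsilon subunit, lower (-0.31 ± 0.10). Of 12 other genes of mitochondrial content 3 were higher (25.0%) and none lower, where 42.6% of all genes tested passed. The 3 were the import pore gene Tomm40 (0.48 ± 0.12), the citrate synthase gene Cs (0.28 ± 0.09) and the prohibitin gene Phb2 (0.28 ± 0.09). Whether complex I differs from these lists was not tested.

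The authors' deposited table, from their own DESeq2 comparison of the same 10 libraries, had 3 complex I genes higher and 2 lower at an adjusted p under 0.05. It is not an independent result, and the share of all genes passing in it was not taken here. In the authors' deposited table the log2 fold changes were 0.42 for Ndufa9, 0.40 for Ndufb6, 0.35 for Ndufb11, -0.30 for Ndufs7 and -0.31 for Ndufs1.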

How the data were processed

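RNA of left atria, 6 Tbx5 knockout and 4 control, was sequenced with single-end reads (51 bp), and the labels name both an mRNA kit and ribosomal-depleted total RNA. The submitters' processing notes name TopHat2 2.0.11, featureCounts, FastQC and DESeq2, with build mm10, in no stated order. Sources used here do not give the annotation, the strand setting or the treatment of multi-mapping reads. Tests used the raw counts that the authors deposited for each gene, per the file headers. They also deposited a normalized signal, used here for levels, which is the count over the library's size factor. The log2 fold change, linear fold and p-value columns are the authors' deposited comparison, as are its standard error and Wald score, per the file headers.

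Samples were grouped by title. Tests used edgeR 4.0.16 in R 4.3.3 (filterByExpr, TMM, quasi-likelihood F-test, Benjamini-Hochberg at 0.05 over 13191 genes), with the standard error as the absolute log2 fold change over the square root of F. The functions were checked on simulated counts. A fold of 1.2 was recovered for 0 of 50 genes, 1.5 for 18 of 46, 2 for 38 of 50 and 4 for 53 of 54. In that check 114 genes passed, against 5622 in the data, so these shares do not carry over directly. A gene that did not pass may still differ by a small fold. Within-sex effects came from a sex by group fit. Alternatives used DESeq2 1.42.0, limma 3.58.1 voom, other scalings, filters, covariates and offsets for length and GC content (spline with 5 degrees of freedom), and each library left out. Centred levels used log2 of the normalized count plus 1. Gene models came from GENCODE M21 (GRCm38), matched by symbol for all 42 genes, and list symbols absent from the table were matched by RefSeq synonyms.

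The genes, lists and rules were chosen with earlier results of these data known. The values of 1 gene are not reported here. The rule names genes past the threshold, the 7 core subunits and the highest and lowest gene of each submodule. Of the other lists, up to 4 genes past the threshold are named, and every such regulator. Regulators without a call, Ndufaf5 to Ndufaf8 and the stretches printed were named after their values were seen. The NRF1 and YY1 motifs were shortened to 9 letters after the data were seen. Total counts were 5701670 to 7697556, replicate correlations of log2 levels 0.964 to 0.986 within groups and 0.888 to 0.949 between them, and no 2 libraries agreed within sampling noise. By label every library is a separate animal, with no batch, litter or date, so p-values measure the spread between these animals.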

Additional observations from a re-analysis of the deposited data

Results flagged for a closer look

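In the group of 4 control libraries, Ndufa11 stood apart in control F2, at 1642 normalized counts, where the other 3 lay between 1420 and 1431. In the group of 6 knockout libraries, Ndufb11 stood apart in knockout F3, at 1906 normalized counts, where the other 5 lay between 1365 and 1550. Both were found by the size of the gap to the nearest library relative to the range of the group, a rule that chance meets in about 1 in 20 groups, and 38 groups were examined.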

How the results depend on the processing

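The count of complex I genes higher in knockout was 3 in the main analysis, 11 with library size only, 1 with length and GC offsets, 1 in female (with 2 lower) and 0 in male libraries alone (2 controls each), and 0 with a replicate block together with the offsets. It ran from 2 to 6 with 1 library left out, 6 without knockout M1. The count of genes lower was 2 in the main analysis, 1 with upper-quartile scaling, with no filter on low counts and with sex as a covariate, 0 with library size only and in male libraries alone, 8 with the offsets and 15 with a replicate block together with the offsets. With 1 library left out it ran from 0, without control F2, to 2. RLE scaling, DESeq2, limma-voom, the stricter filter, a robust fit and an adjusted p of 0.1 kept both counts within 1.5 times. Among these fits, the share of all genes tested that passed was taken only for the main analysis, library size only, the offsets and each sex alone. The other counts, those with a block included, cannot be set beside such a share.

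The median log2 fold change of 0.05 was -0.14 with the offsets and -0.21 with the offsets and the block. Over all genes tested the medians were -0.01 and -0.02 under the same settings. With library size only, Ndufs3 reversed to 0.012 and Ndufv1 to 0.064. With the offsets Ndufa11 reversed to -0.072, Ndufa4l2 to -0.071 and Ndufs8 to -0.015, and with the block added they stood at -0.25, -0.090 and -0.093. Among these alternatives to the genotype fit, Ndufa9 did not pass in male libraries alone (adjusted p = 0.134) or with the offsets and the block (adjusted p = 0.0879). In the sex by group fit it passed in neither sex (adjusted p = 0.11 in females and 0.0696 in males). For results that changed the cause was not tested.

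The replicate labels do not state a pairing of the animals. Deviations from the group means of same-labelled libraries correlated at -0.04 (M1), 0.16 (M2), -0.13 (F1) and -0.06 (F2). Pairs of libraries with different labels ran from -0.18 to 0.18. With 4 control and 6 knockout libraries, these correlations cannot decide whether the animals were paired. A replicate block on these labels gave 2 genes higher, 3 lower and a median of -0.05. Labels F3 and M3 occur only among knockout libraries, so under a block these libraries do not inform the genotype effect, with or without the offsets. Their centred medians over the complex I genes, 0.27 in knockout F3 and 0.14 in knockout M3, were the highest of the knockout group. Results with a block therefore do not rest on all libraries. Depth limits Ndufab1, Ndufa4l2 and Ndufaf2, the genes with fewest reads.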
